A study of Mus musculus with 29 samples.

Results

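The enzymes that build haem were followed in the marrow and spleens of mice with a leukaemia fusion gene. The set holds 8 genes, Alas1, Alas2, Alad, Uros, Urod, Cpox, Ppox and Fech, of 12394 genes measured. Members were the probe sets annotated to exactly one of these symbols, which gave 14 of the 20393 probe sets with a single symbol. Where a gene had several, the brightest in the tissue stood for it. Probe sets were assigned by symbol, and a measured level entered that step only in the choice between probe sets of a gene. The 8 genes and the lists set beside them were chosen with earlier results of these data known.

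RNA of primary cells was hybridised to 29 Affymetrix arrays, 15 of marrow and 14 of spleen. The fusion mice carry MLL-ENL-ERtm, in which the oncogene MLL-ENL is joined to a piece of an altered oestrogen receptor, so that its protein works only with tamoxifen. Every mouse, wild type included, received tamoxifen at 300 mg/kg of chow. Strain and sex were not given in the labels, nor the ages other than the statement that the wild-type spleens were age-matched. In marrow there were 4 proliferation arrays (7 months of tamoxifen), 4 transition arrays (7 to 8 months), 3 senescence arrays (8 months) and 4 wild-type arrays (7 or 8 months). The proliferation state is described as dividing strongly, with little DNA damage response signalling. On these arrays 9 cell division genes averaged 12.33 in proliferation and 12.66 in wild-type marrow, and none differed at an adjusted p under 0.05 by limma. In spleen there were 3 early arrays (7 months), 3 progression arrays (9 or 10 months), 3 terminal arrays (19, 21 and 23 months) and 5 wild-type arrays, of which 1 came from a mouse treated for 24 months and 4 from mice treated for 8 to 11 months. The labels call the arrays of a group biological replicates, and each was taken as 1 mouse.

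Haem is an iron-holding ring that gives haemoglobin, the cytochromes, catalase and myeloperoxidase their activity. Its synthesis starts in the mitochondrion with a 5-aminolevulinate synthase, runs through the cytosol and ends in the mitochondrion, where iron is placed into the ring. The first step is made by either of a pair of genes: Alas1, used in all cells and repressed by haem, or Alas2, used in red cell precursors and driven there by GATA1. The later enzymes are shared by all cells and are made in large amounts in red cell precursors. In adult mice both marrow and spleen make red cells.

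The promoters of both synthases are shown because these genes moved apart in the spleen, and that of Cpox because its call there turned on the probe set. Each run is the 250 bases before the start of the RefSeq transcript on GRCm38.p6. Capitals mark GATA motifs (AGATAA, or the same with T as its first letter, G as its last letter, or both changes) and CACCC, each searched on both strands, and neighbouring matches can overlap.
Alas1, chr9:106247955-106248204, minus strand: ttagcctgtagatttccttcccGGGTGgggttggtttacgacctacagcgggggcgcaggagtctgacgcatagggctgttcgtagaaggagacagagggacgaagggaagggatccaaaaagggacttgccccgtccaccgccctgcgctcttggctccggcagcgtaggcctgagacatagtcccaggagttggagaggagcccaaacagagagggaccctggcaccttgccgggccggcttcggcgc
Alas2, chrX:150547167-150547416, plus strand: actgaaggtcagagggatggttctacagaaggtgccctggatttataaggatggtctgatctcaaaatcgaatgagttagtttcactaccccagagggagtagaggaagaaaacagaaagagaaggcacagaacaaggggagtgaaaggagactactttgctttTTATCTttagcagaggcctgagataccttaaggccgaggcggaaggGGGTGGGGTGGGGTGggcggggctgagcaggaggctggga
Cpox, chr16:58669958-58670207, plus strand: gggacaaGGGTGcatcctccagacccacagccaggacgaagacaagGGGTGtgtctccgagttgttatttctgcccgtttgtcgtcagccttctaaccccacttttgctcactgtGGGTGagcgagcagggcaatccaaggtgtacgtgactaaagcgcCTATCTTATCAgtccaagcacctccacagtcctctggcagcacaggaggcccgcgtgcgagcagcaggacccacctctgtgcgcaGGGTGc
The Alas2 window held 1 GATA motif, 86 bases before the start, and 3 CACCC runs 40, 35 and 30 bases before it. The Cpox window held 2 overlapping GATA motifs, 91 and 86 bases before the start, and 4 CACCC runs. The Alas1 window shown, the first of 2 for that gene, held 1 CACCC run 228 bases before the start and no GATA motif of these letters. Of 32851 promoter windows of this length, 26.5% held such a GATA motif and 52% held CACCC. Windows of 7 of the 8 members were searched, 10 in all, and Fech was not among them. Of these 10, 3 held a GATA motif and 5 held CACCC, shares near those over all windows. These matches describe letters, not binding.

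Values are log2 levels after RMA, the background correction, normalization and summary of Affymetrix probes, so a step of 1 is a doubling. The median of a marrow array was 8.11 to 8.29 and that of a spleen array 6.73 to 6.90, and levels were compared within a tissue. No pair of arrays was identical, with r of 0.959 to 0.995 among marrow arrays and 0.934 to 0.996 among spleen arrays. Some arrays stood apart. Transition array 4 was the lowest of the marrow arrays in red cell genes. Proliferation array 1 carried fat and muscle signal, with a mean of 10.03 over 8 such genes, against 6.47 to 7.47 in the other marrow arrays. In spleen, wild-type array 3 had a mean of 12.58 over 7 pancreas genes, early array 1 had 8.45 and wild-type array 5 had 7.95, against 5.31 to 5.69 in the rest. As a check of the tissues, primary granule genes averaged 13.36 to 14.31 on marrow arrays, and on spleen arrays 11.96 to 13.40 in fusion mice and 8.40 to 9.85 in wild type. B cell genes averaged 7.06 to 8.24 in fusion marrow and 8.55 to 9.64 in wild-type marrow, and 5.36 to 8.15 in fusion spleens and 8.64 to 9.10 in wild-type spleens, so they do not tell the tissues apart.

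In spleen the 2 synthases parted. Alas1 was higher in fusion spleens at all 3 stages, 4.64-fold in early, 4.14-fold in progression and 6.45-fold in terminal spleens relative to wild type. Alas2 did not pass the test in early or progression spleens and fell to 0.119 of the wild-type level in terminal spleens. Of the other 6 enzymes, 5 fell in terminal spleens, to between 0.221 and 0.359 of wild type, and none passed at the earlier stages. Cpox was the member that did not pass in any spleen comparison with its brightest probe set.

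Alas1, the synthase of all cells, had levels of 10.45, 9.79 and 11.09 in early spleens, 9.80, 10.56 and 10.48 in progression spleens, 10.88, 11.25 and 10.63 in terminal spleens and 8.69, 8.26, 7.98, 8.25 and 7.98 in wild-type spleens. Every fusion array lay above every wild-type array, while the 3 fusion groups lay close together. The differences from wild type were 2.21 ± 0.27 in early (SE, limma with 4 groups in 1 fit, adjusted p = 0.000155), 2.05 ± 0.27 in progression (adjusted p = 0.000188) and 2.69 ± 0.27 in terminal spleens (adjusted p = 5.43e-06). The 95% interval of the terminal difference was 2.11 to 3.27. In order of mean level, terminal spleens (10.92 ± 0.31, SD, n = 3) stood above early (10.45 ± 0.65, n = 3), progression (10.28 ± 0.42, n = 3) and wild type (8.23 ± 0.29, n = 5). The fusion neighbours in this order were not separated: terminal minus early was 0.48 ± 0.30 (adjusted p = 0.357), and terminal minus progression was 0.64 ± 0.30 (adjusted p = 0.201), although every terminal array lay above every progression array, as for 12.9% of all genes.

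Alas2, the red cell synthase, had levels of 12.92, 13.06 and 13.21 in early spleens, 13.04, 12.56 and 12.85 in progression spleens, 9.61, 10.50 and 9.56 in terminal spleens and 13.08, 12.84, 12.95, 13.12 and 12.78 in wild-type spleens. The terminal arrays lay more than 2 log2 units below all others, and early, progression and wild-type arrays overlapped. The first of the wild-type values, 13.08, is that of the mouse with 24 months of tamoxifen. The terminal difference from wild type was -3.07 ± 0.19 (adjusted p = 1.8e-07), with a 95% interval of -3.48 to -2.65. In early spleens it was 0.11 ± 0.19, with an interval of -0.30 to 0.52, and in progression spleens -0.14 ± 0.19, with an interval of -0.55 to 0.27.

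Alad joins 2 molecules of aminolevulinate into the first ring compound of the pathway. Its levels were 11.75, 11.86 and 10.81 in early spleens, 11.50, 11.35 and 11.68 in progression, 9.92, 9.27 and 10.35 in terminal and 11.56, 11.64, 11.55, 11.43 and 11.29 in wild-type spleens. All 3 terminal arrays were below all others, early array 3 being the next lowest, and the terminal difference was -1.64 ± 0.24 (adjusted p = 0.000144). Uros, which closes the ring in the orientation that haem needs, had 10.88, 11.01 and 10.47 in early, 10.77, 10.49 and 10.62 in progression, 9.26, 8.46 and 9.19 in terminal and 10.77, 10.79, 10.85, 10.62 and 10.51 in wild-type spleens. Terminal arrays were again apart, by -1.73 ± 0.18 (adjusted p = 6.42e-06). Urod, which removes carboxyl groups from the ring and is the last of the cytosolic enzymes, had 11.30, 11.43 and 11.38 in early, 11.54, 11.27 and 11.16 in progression, 9.42, 9.06 and 9.49 in terminal and 11.30, 11.31, 11.33, 11.11 and 11.01 in wild-type spleens. Its terminal difference was -1.88 ± 0.13 (adjusted p = 2.7e-07), and its other 3 groups overlapped.

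Cpox takes the pathway back into the mitochondrion, between its outer and inner membrane. It had 10.68, 10.37 and 9.36 in early spleens, 10.51, 9.53 and 9.89 in progression, 9.41, 8.64 and 9.61 in terminal and 10.02, 9.97, 10.05, 9.64 and 9.41 in wild-type spleens. Unlike the rest, its terminal and wild-type arrays overlapped, and the difference of -0.60 ± 0.31 did not pass (adjusted p = 0.153, 95% interval -1.26 to 0.06). Its dimmer probe set, in a fit of all 20393 single-symbol probe sets added after the data were seen, was lower in terminal spleens by -0.89 ± 0.25 (adjusted p = 0.0122). The levels there were 8.36, 7.59 and 8.81 in terminal and 9.15, 9.17, 9.22, 9.10 and 9.09 in wild-type spleens, which do not overlap. The mean of both probe sets gave -0.75 (adjusted p = 0.0440), so the call for Cpox turned on the probe set.

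Ppox, which oxidises the ring to protoporphyrin, had 10.75, 10.83 and 10.46 in early, 10.65, 10.44 and 10.46 in progression, 9.28, 8.87 and 8.72 in terminal and 10.25, 10.59, 10.67, 10.52 and 10.16 in wild-type spleens. The terminal arrays were below all others, by -1.48 ± 0.15 relative to wild type (adjusted p = 7.53e-06). Fech, ferrochelatase, inserts the iron. It had 13.23, 13.37 and 13.06 in early, 13.02, 12.67 and 13.21 in progression, 10.90, 11.34 and 11.07 in terminal and 13.33, 13.22, 13.25, 13.46 and 13.13 in wild-type spleens. The terminal difference was -2.18 ± 0.14 (adjusted p = 1.9e-07), the deepest after Alas2. In progression it was -0.31 ± 0.14 (unadjusted p = 0.0434, adjusted p = 0.136).

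Fech was measured by 4 probe sets, which did not all tell the same story before the terminal stage. In terminal spleens the 2 other bright ones gave -2.70 and -2.71, and a dim one with a mean level of 5.78 gave -0.07 (adjusted p = 0.814). Of the bright pair, the probe set that gave -2.71 was also lower in early spleens by -0.61 ± 0.17 (adjusted p = 0.0279) and in progression spleens by -0.61 ± 0.17 (adjusted p = 0.0258). Its levels were 11.61, 11.68 and 12.03 in early, 11.80, 11.56 and 11.97 in progression and 11.83, 12.49, 12.62, 12.44 and 12.55 in wild-type spleens. Wild-type array 1, the mouse with 24 months of tamoxifen, was the one wild-type array within the fusion range. The other gave -0.49 in early (adjusted p = 0.118) and -0.48 in progression (adjusted p = 0.109). The second probe set of Alas1 gave 1.72, 1.61 and 2.09 in early, progression and terminal spleens, past the test each time, and that of Ppox gave -1.67 in terminal spleens.

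**Figure D1:**
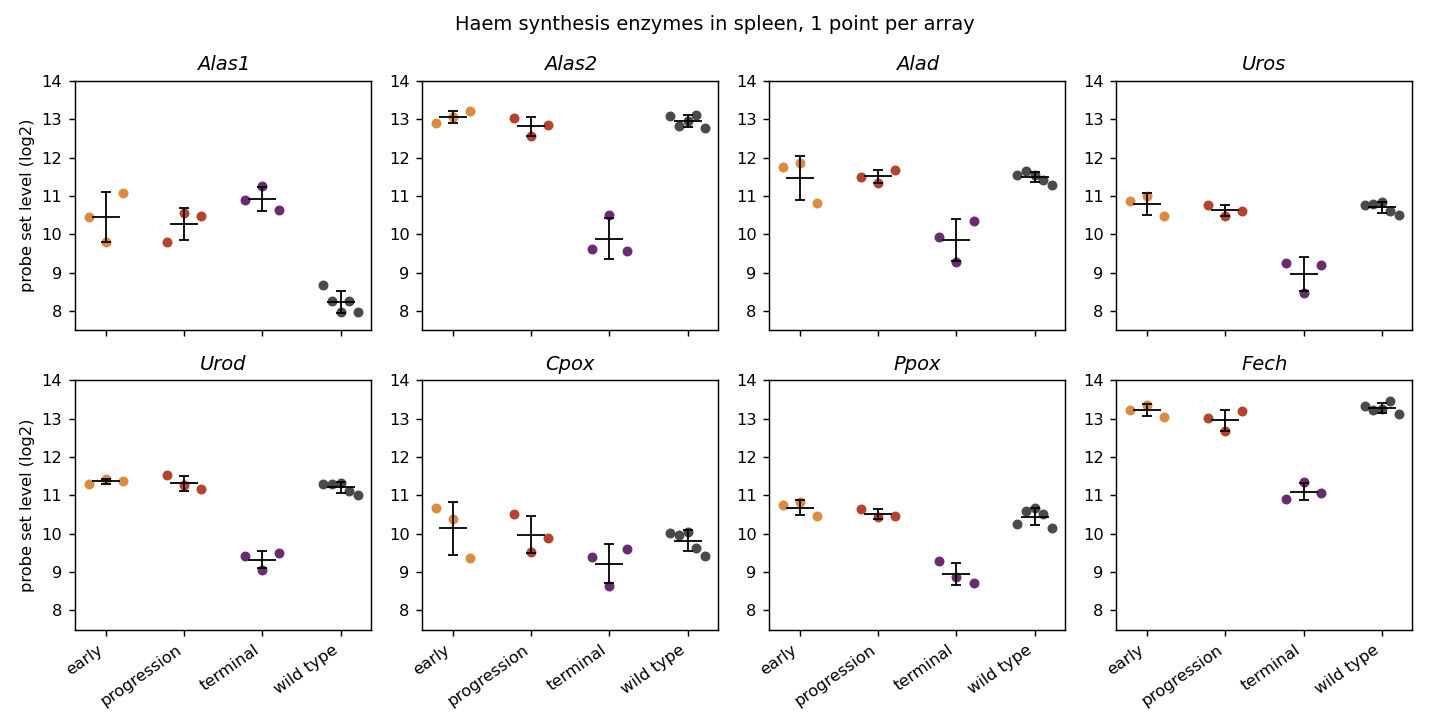
Log2 level of each of the 8 enzymes in spleen, with a point for each array and the group mean ± SD, for early, progression, terminal (n = 3 each) and wild-type spleens (n = 5). Alas1 stands above wild type in all 3 fusion groups, and all others but Cpox stand below every other array in the terminal group.

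Counted over the set, 1 of 8 members passed in early spleens and 1 in progression spleens, both times Alas1 and higher. Of all genes 15.9% and 19.3% passed in these comparisons in either direction, and 7.35% and 9.29% were higher. In terminal spleens 7 of 8 passed, 1 higher and 6 lower, where 34.5% of all genes passed, 18.1% higher and 16.3% lower. Every terminal array lay below every wild-type array for 6 members, a pattern that 18.2% of all genes showed. For Alas1 every array was above wild type at each stage, as for 12.3%, 12.2% and 21.4% of all genes in early, progression and terminal spleens. The median difference of the members was 0.13, 0.05 and -1.69 in early, progression and terminal spleens, beside 0.03, 0.04 and 0.04 over all genes. These 3 comparisons share their wild-type arrays.

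The lower levels separated the terminal stage from progression too. Terminal against progression, 6 of 8 members were lower and none higher, where 5.86% of all genes passed. Of all genes 3.3% were lower. Alas2 differed by -2.93 ± 0.21, Fech by -1.86 ± 0.16, Alad by -1.66 ± 0.27, Uros by -1.65 ± 0.20 and Ppox by -1.56 ± 0.17, and Urod passed too (adjusted p = 1.59e-06). Cpox, at -0.76 ± 0.34 (adjusted p = 0.184), and Alas1 did not pass. The same count, 6 of 8, was reached against early spleens, where 6.61% of genes passed and 3.88% were lower, with Alas2 at -3.17 ± 0.21, Fech at -2.12 ± 0.16, Urod at -2.04 ± 0.14, Uros at -1.81 ± 0.20, Ppox at -1.72 ± 0.17 and Alad at -1.63 ± 0.27. Cpox differed from early spleens by -0.92 ± 0.34 (adjusted p = 0.119) and Alas1 did not pass. Between progression and early spleens no member passed (lowest adjusted p = 0.731), and no gene of the array did, while 7.34% had an unadjusted p under 0.05. Terminal mice also had the longest treatment apart from 1 wild-type mouse. With months of tamoxifen as a covariate 7 of 8 members passed against wild type, whereas the Alad differences from early (-1.47) and progression (-1.54) no longer did. Outside the terminal group that 1 wild-type mouse alone was treated as long, so this fit can hardly tell stage and length of treatment apart.

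Genes of other cell types moved with the enzymes. A list of 22 genes of the red cell membrane, globin and other red cell functions had 17 measured. Of these 15 fell in terminal spleens, with a median difference of -1.79. Their mean level was 11.19 to 11.42 in early and 10.82 to 11.11 in progression arrays, 9.45, 9.03 and 9.63 in terminal arrays and 10.90 to 11.18 in wild-type arrays. Within the terminal group array 2 was the highest in Alas2 (10.50) and the lowest in this list (9.03). Epb42, a protein of the red cell skeleton, fell by 3.42 ± 0.20, and Trim10, which mouse red cell precursors need to mature, fell by 3.07 ± 0.14. The probe set of Hba-a1 lay near the bottom of the scale in every spleen group and tells little about globin. Of 11 red cell regulators measured (of 12 listed, Epor and Bnip3l among them) 9 fell, including the transcription factors Tal1 at -1.76 ± 0.29 and Klf1 at -1.52 ± 0.31. In these bulk samples fewer red cell precursors and less RNA per cell cannot be told apart.

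Genes of several other cell types differed in the spleens where Alas1 was higher. All 5 primary granule genes measured (of 6), which mark young granulocytes and include the haem protein myeloperoxidase, were higher in fusion spleens at every stage, with medians of 3.70, 3.74 and 4.04. Their mean level was 12.70, 11.96 and 13.31 in early, 12.13, 13.14 and 12.73 in progression, 12.79, 13.40 and 13.03 in terminal and 9.85, 9.67, 8.40, 8.51 and 8.51 in wild-type spleens, so fusion and wild type did not overlap. Wild-type array 1 was the highest of its group both in this list and in Alas1. Array 2 came next in the list at 9.67. In Alas1 it stood level with array 4 (8.26 and 8.25), whose list mean was 8.51. All 9 late neutrophil genes were higher at each stage as well, with medians of 1.25, 1.24 and 1.68. Red pulp macrophage genes, from cells that take up old red cells, averaged 8.17 to 9.46 in early, 8.98 to 9.41 in progression and 8.43 to 9.21 in terminal spleens, against 9.73 to 10.46 in wild type. Of 9 B cell genes 7 were lower at each stage and the other 2 higher in progression, with medians of -1.57, -2.28 and -3.07, and of 7 T cell genes 6, 6 and 7 were lower, with medians of -1.52, -1.71 and -1.78. The part of these cell types in the enzyme levels was not tested. Without wild-type array 3, the one with most pancreas signal, Alas1 differed by 2.63 and Alas2 by -3.07 in terminal spleens. With each spleen array left out in turn, Alas1 differed by 1.89 to 2.54 in early, 1.91 to 2.29 in progression and 2.52 to 2.84 in terminal spleens, past the test each time.

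**Figure D2:**
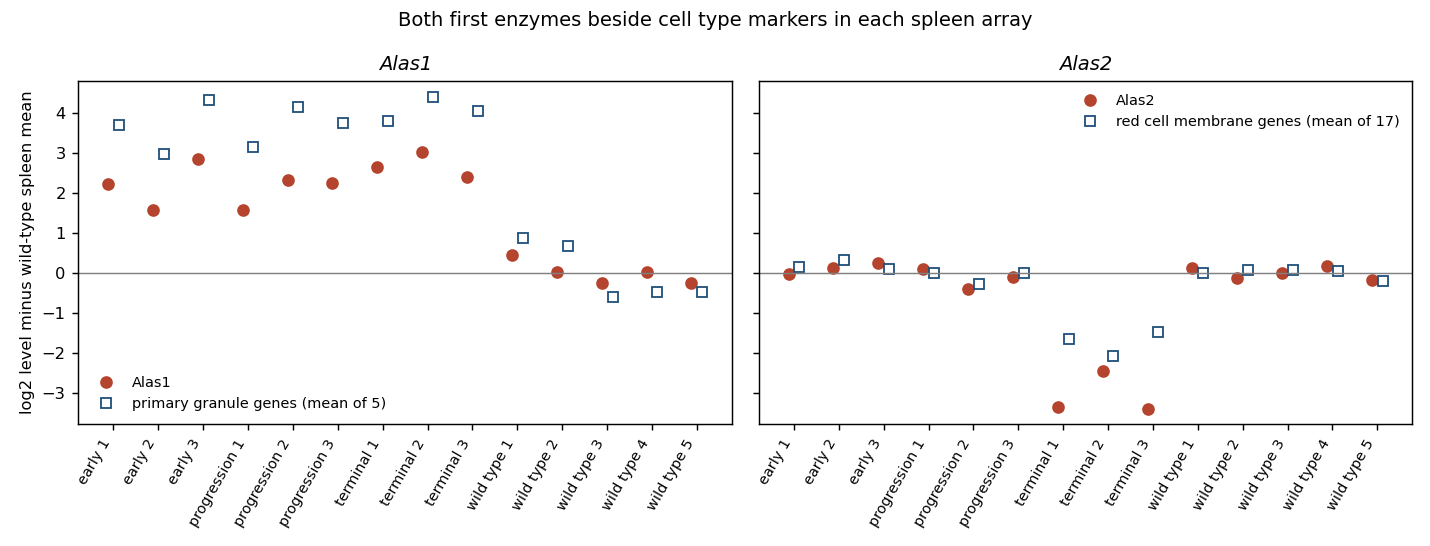
Difference of each spleen array from the wild-type mean (log2), for Alas1 beside the mean of 5 primary granule genes and for Alas2 beside the mean of 17 listed red cell genes. The red cell list is labelled as membrane genes but also holds globin and other red cell genes. Filled circles are the enzyme and open squares the list, with the 14 arrays in the order early, progression, terminal and wild type. Enzyme and list lie on the same side of 0 in all fusion arrays for Alas1 and in all terminal arrays for Alas2.

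Around the pathway, the genes that carry substrates and build iron-sulphur clusters were counted from a list of 19, of which 15 were measured. In terminal spleens 7 fell and 1 was higher, with a median of -0.42. Slc25a37, the mitoferrin that feeds iron to ferrochelatase in red cells, fell by 2.35 ± 0.16 (adjusted p = 2.81e-07). Slc6a9, a glycine importer, was at -1.53 ± 0.16, Hscb, a helper of iron-sulphur cluster assembly, at -1.34 ± 0.20, and Abcb10, a transporter of the inner mitochondrial membrane, at -1.30 ± 0.15. The 1 that was higher, Tspo, an outer mitochondrial membrane protein, differed by 0.96 ± 0.21 in terminal and 1.04 ± 0.21 in progression spleens, and was picked out after its values were seen. In early spleens the 1 gene past the test was Slc6a9, higher by 0.76 ± 0.16 (adjusted p = 0.00556), the opposite of its terminal change.

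Of 11 iron genes 9 were measured, and 5 fell in terminal spleens, with a median of -0.58. Slc40a1, the iron exporter ferroportin, was at -2.11 ± 0.39, Fth1, a ferritin chain, at -0.59 ± 0.10, and Tfrc, the transferrin receptor, at -0.66 ± 0.17, a call lost in 3 of 19 alternatives, with a value of -0.15 (adjusted p = 0.737) for the mean of its probe sets. All 11 genes of haem breakdown and export were measured, and 6 fell in terminal spleens while 2 were higher. Hmox1, which opens the haem ring, was at -1.91 ± 0.36, Blvrb, a biliverdin reductase, at -1.81 ± 0.18, Slc48a1, a haem transporter, at -1.30 ± 0.13, and Eif2ak1, the kinase that senses haem in red cell precursors, at -1.22 ± 0.17. Flvcr1, a haem exporter, and Bach1, a repressor that haem releases from DNA, were the 2 that were higher, by 0.39 ± 0.12 and 0.59 ± 0.13, and were named after their values were seen. Hmox1 was lower in early spleens as well, at -1.68 ± 0.36, ranging over the alternatives from -2.05 to -1.03, and the call was lost with the replicate number as block (adjusted p = 0.0653). Hmox1 and Slc40a1 are also on the red pulp macrophage list.

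In marrow none of the 8 enzymes passed the test in any state. Alas2 had levels of 12.78, 13.16, 13.80 and 14.03 in proliferation, 14.24, 13.22, 13.09 and 11.23 in transition, 13.38, 13.74 and 13.74 in senescence and 14.11, 13.61, 14.37 and 14.69 in wild-type marrow. All groups overlapped, and a single transition array spread that group over 3 log2 units. The differences from wild type were -0.75 ± 0.48 in proliferation, -1.25 ± 0.48 in transition (unadjusted p = 0.0196, adjusted p = 0.377) and -0.58 ± 0.51 in senescence. Without transition array 4 the transition difference was -0.68 ± 0.34 (adjusted p = 0.689), and without proliferation array 1 the proliferation difference was -0.53 ± 0.50.

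Alas1 had 12.64, 12.76, 13.11 and 12.95 in proliferation, 12.35, 13.25, 13.48 and 13.08 in transition, 12.89, 12.71 and 13.05 in senescence and 12.52, 12.87, 12.81 and 12.64 in wild-type marrow. It varied least of the members, over a range of 1.12 on all 15 arrays, and differed from wild type by 0.15 ± 0.20, 0.33 ± 0.20 and 0.17 ± 0.22 in proliferation, transition and senescence. The primary granule genes had group means of 13.49, 13.74 and 13.61 in these states and 13.66 in wild-type marrow, and none of them passed. Cpox ran from 8.65 in transition array 4 to 11.75 in a wild-type array, and its differences were -0.78 ± 0.55, -1.19 ± 0.55 (unadjusted p = 0.0487, adjusted p = 0.476) and -0.89 ± 0.60. Without transition array 4 its transition value was -0.73 ± 0.52.

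In proliferation, transition and senescence Alad differed from wild type by -0.20, -0.62 and -0.15, Uros by -0.37, -0.70 and -0.39, and Urod by -0.48, -0.81 and -0.39. Ppox differed by -0.02, -0.33 and 0.04, and Fech by -0.42, -0.76 and -0.30. In the fit of all single-symbol probe sets the dimmer probe set of Ppox gave -0.54, -0.95 and -0.76. The sign of Ppox in senescence therefore turned on the probe set. In transition the other bright probe sets of Fech gave -0.95 and -0.97, and its dim one -0.01. None of these passed. Fech averaged 13.92 ± 0.57 in proliferation, 13.58 ± 1.00 in transition, 14.04 ± 0.18 in senescence and 14.34 ± 0.54 in wild type (SD, n = 4, 4, 3 and 4). By their brightest probe sets 7, 7 and 6 of the 8 members lay below wild type in proliferation, transition and senescence. The medians were -0.40, -0.73 and -0.35, beside 0.01, 0.04 and 0.00 over all genes. The members other than Alas1 moved together from array to array, so their signs are not independent. Of all genes 0.282%, 0.42% and 0.0484% passed in the 3 comparisons, and 9.9%, 10.5% and 6.36% had an unadjusted p under 0.05, against 0, 2 and 0 of the 8 members. Between the states no member and no gene passed, and 2.15%, 3.07% and 1.01% of genes had an unadjusted p under 0.05 in transition against proliferation, senescence against transition and senescence against proliferation. The marrow mean of the 17 listed red cell genes moved with the enzymes. It was 10.72, 11.74, 12.15 and 12.27 in proliferation, 12.41, 11.68, 11.07 and 9.55 in transition, 11.33, 12.01 and 11.68 in senescence and 11.55, 11.46, 12.62 and 12.70 in wild-type arrays. Their part in the enzyme values was not tested.

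**Figure D3:**
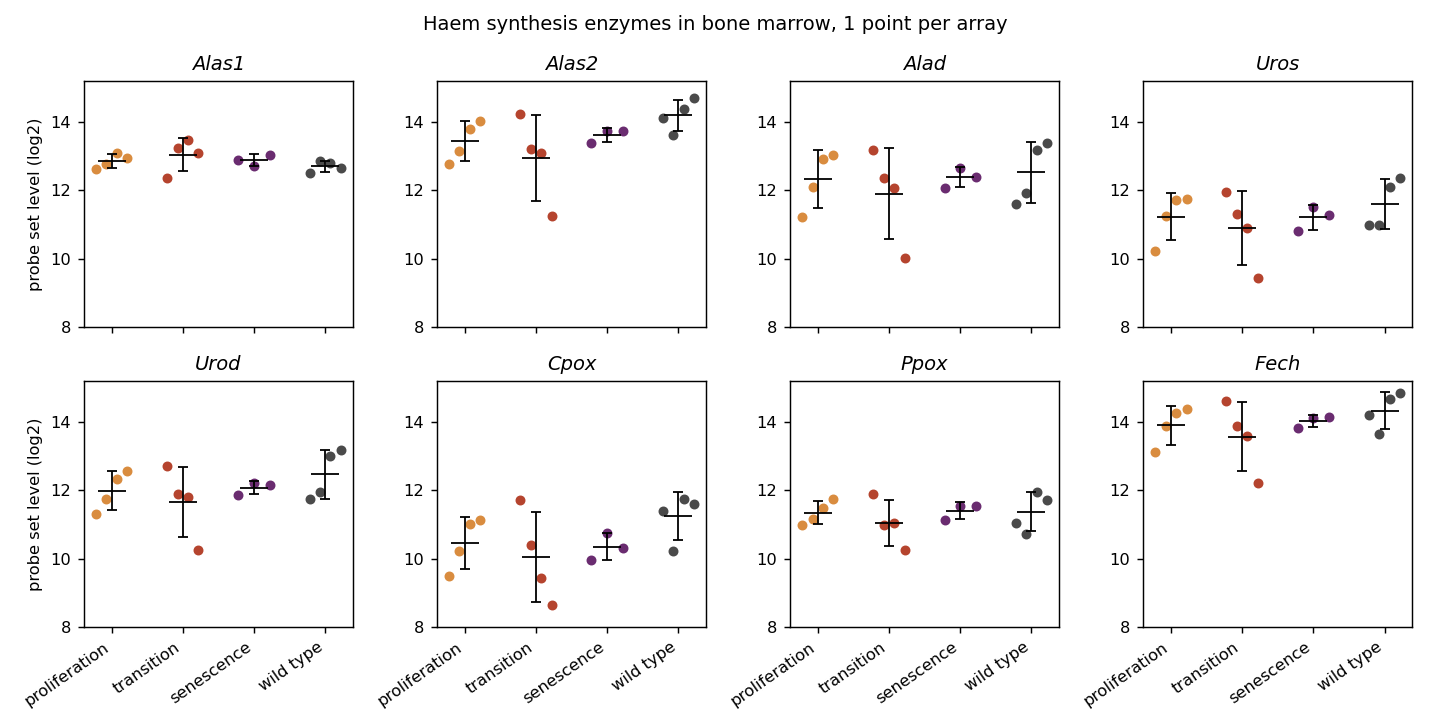
Log2 level of each of the 8 enzymes in marrow, with a point for each array and the group mean ± SD, for proliferation, transition (n = 4 each), senescence (n = 3) and wild-type marrow (n = 4). Every group overlaps wild type for every member, and transition array 4 is the lowest point in all panels but that of Alas1.

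Set beside Alas2, the shared enzymes followed it closely from array to array in marrow. Over 15 arrays Fech correlated with Alas2 at r = 0.971 (Spearman rho 0.954, adjusted permutation p = 3.5e-05), Urod at 0.942 (rho 0.861), Cpox at 0.925 (rho 0.957) and Uros at 0.915 (rho 0.861), all with the same adjusted p, which rests on the smallest p that 100000 resamples can give. Alad reached 0.884 (rho 0.793, adjusted permutation p = 0.00014) and Ppox 0.841 (rho 0.764, adjusted permutation p = 0.00028). With the 2 arrays farthest from the Alas2 median left out, these 6 values were 0.668 for Alad to 0.922 for Fech. With the group means removed they were 0.897 for Ppox to 0.978 for Fech. Transition marrow had the widest spread of Alas2 (SD 1.25, against 0.21 to 0.57 in the other groups). The values with group means removed were not computed without its arrays, so they may rest on them. Not every pair of arrays kept the order: wild-type array 1 was above array 2 in Alas2 (14.11 and 13.61) and below it in Alad (11.60 and 11.92). Alas1 gave -0.425 (rho -0.446, adjusted permutation p = 0.201), and -0.641 with those 2 arrays left out (adjusted permutation p = 0.0357). With the group means removed it gave -0.247 (adjusted permutation p = 0.382). In all 14 relations were computed over both tissues.

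In spleen the terminal arrays stand apart, so no pooled value is given. Over the 11 other arrays Fech reached 0.620 with Alas2 (rho 0.473, adjusted permutation p = 0.0916), and the rest lay between -0.171 and 0.357, none past the test. With group means removed over all 14 arrays, Fech reached 0.654 (adjusted permutation p = 0.0193). Uros turned to -0.599 (adjusted permutation p = 0.0414, against 0.254 over the 11 arrays), while Alad was at -0.581 (adjusted permutation p = 0.0504). Terminal array 2 was the highest of its group in Alas2 (10.50) and Fech (11.34) and the lowest in Uros (8.46) and Alad (9.27). The values with group means removed were not computed without that array, so those of Fech, Uros and Alad may all rest on it. The spread of Alas2 over the 11 arrays without terminal spleens was small, from 12.56 to 13.21. Within the terminal group its SD was 0.53, the widest of the spleen groups. The permutations with group means removed shuffled deviations across groups of unequal spread, so their p can be too small.

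**Figure D4:**
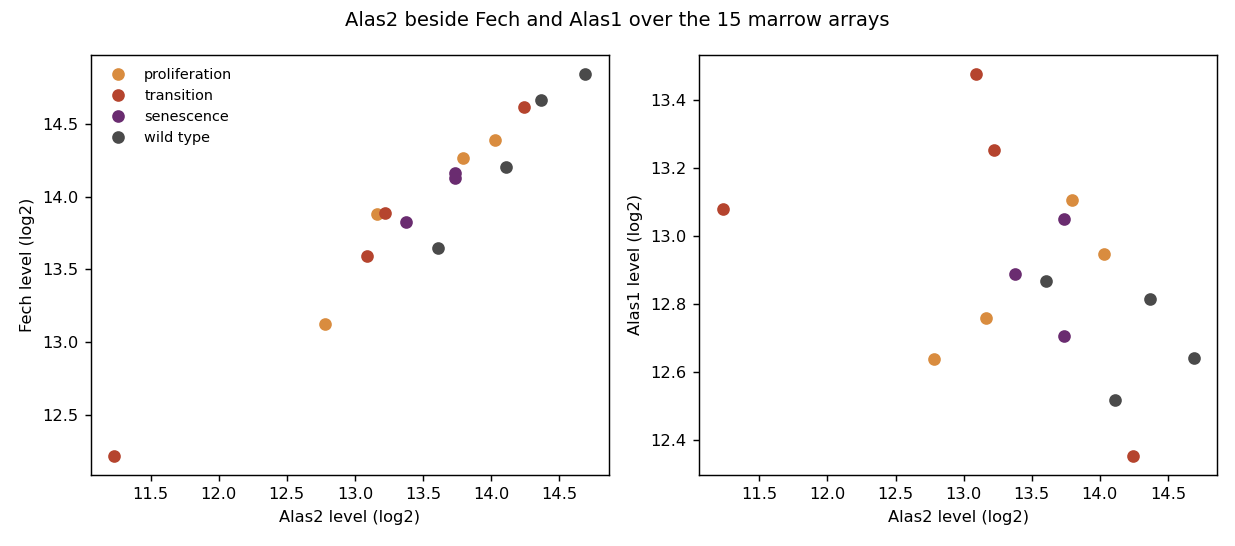
Log2 level of Fech (left) and Alas1 (right) against the log2 level of Alas2 over the 15 marrow arrays, each point 1 array, with the groups told apart by colour. Fech lies along a line with Alas2 (r = 0.971), and Alas1 does not (r = -0.425).

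The fusion effect on Alas1 differed between the tissues. The mean of the 3 fusion groups minus wild type was 2.32 ± 0.19 in spleen and 0.22 ± 0.20 in marrow, a difference of 2.10 ± 0.27 (limma over 29 arrays, adjusted p = 1.11e-05). It was the 1 member of 8 that passed, where 14% of all genes did and 5.42% were higher in this contrast. For Alas2 the effects were -1.03 ± 0.30 in spleen and -0.86 ± 0.32 in marrow, a difference of -0.17 ± 0.44 (adjusted p = 0.844), and this spleen value averages over stages that differed from each other. The remaining members had adjusted p of 0.299 (Cpox) to 0.984 (Urod). The fusion groups averaged were treated for 7 to 8 months in marrow and 7 to 23 months in spleen. Tissue, stage and length of treatment cannot be told apart in this contrast. The fit shares 1 estimate of spread per gene over both tissues. The labels do not say if a mouse gave both tissues.

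**Figure D5:**
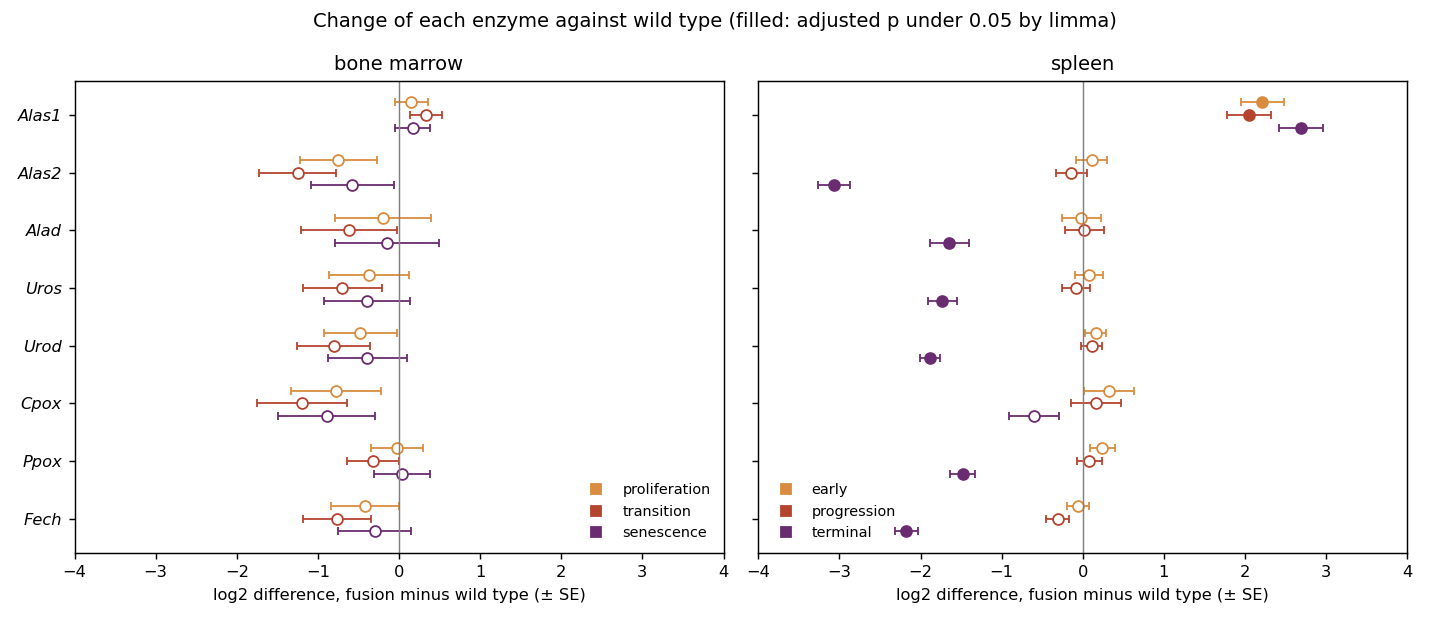
Log2 difference of each enzyme from wild type ± SE in marrow (left) and spleen (right), with filled points past an adjusted p of 0.05 by limma. The filled points are Alas1 at all 3 spleen stages and 6 other enzymes in terminal spleens.

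The genes most like Alas2 were looked up by Pearson r over all 12394 genes, as a description. Over the 15 marrow arrays Trim10 (0.986), Tent5c (0.983), Tmcc2 (0.974) and Cdr2 (0.971) came first, with Fech at rank 5. With group means removed the order began with Trim10 (0.985), Tmcc2 (0.982) and Fech (0.978). In spleen with group means removed, over 14 arrays, it was Bpgm (0.947), which makes bisphosphoglycerate in red cells, then Adamtsl4 (0.910) and Tnfrsf19 (0.906), and Fech had rank 170. The genes most like Alas1, looked up after its values were seen, were Gpr84 (0.952), Tmem38b (0.947), Ncf1 (0.946), a subunit of the phagocyte oxidase, and Neu1 (0.943) in spleen with group means removed. In marrow with group means removed they were Fam118a (0.945), Rrp1b (0.944) and Lgals1 (0.929).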

How the data were processed

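The authors deposited log2 probe set levels of 29 arrays with 22690 probe sets. RMA, affy and limma are named in the submitters' processing notes, and their versions are not given in the sources used here. Probe sets were named through the platform annotation, 20393 with 1 symbol, 691 with several and 1606 with none. Symbols and promoters come from RefSeq (GRCm38.p6).

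Per tissue, 1 limma 3.58.1 model (R 4.3.3) with 4 groups was fitted to 12394 genes, without a filter on dim genes, with Benjamini-Hochberg adjustment over all genes and a threshold of 0.05. Every adjusted p of a difference is from limma. The tissue contrast came from a fit over all arrays. Correlations were tested two-sided with 100000 permutations in Python 3.11.15 and scipy 1.17.1, adjusted over 14 relations, and figures drawn with matplotlib 3.10.9. With group means removed, deviations were shuffled over all arrays of a tissue regardless of group, so those p are approximate. The fits were tested on simulated data. Arrays give no read depth, and their number limits the precision.

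The rule names all 8 members (by their count alone between marrow states and in progression against early spleens), of each other list up to 4 genes with the smallest p, and for likeness up to 8 genes without placeholder symbols. The members and lists were chosen with earlier results of these data known. Alternatives were quantile normalization, median centring, a filter at the median level, averaging a gene's probe sets, the compared groups alone, array weights, eBayes with trend and robust set, the replicate number as block, Gapdh 3'/5' difference, Xist or months of tamoxifen as covariate, and each array left out.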

Additional observations from a re-analysis of the deposited data

Results flagged for a closer look

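Alas1 differed between tissues in its fusion effect by 2.10 on the log2 scale, from 2.32 ± 0.19 in spleen and 0.22 ± 0.20 in marrow, by the test of the difference itself. Leaving out each array in turn gave 1.99 to 2.21, past the threshold every time. The 5 primary granule genes all passed in each spleen stage, where 15.9% to 34.5% of all genes did, and 0 of 5 in each marrow state, where at most 0.42% did. Their part in the difference was not tested. The stages and lengths of treatment averaged also differ between the tissues. No array stood apart from its group in the 32 member and group pairs of 4 or 5 arrays by Dixon's 95% limit, which chance passes in about 1 of 20 groups.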

How the results depend on the processing

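Over 104 member values (8 members, 13 comparisons) and 1984 alternative fits, 1969 kept their side of the threshold, 3 lost the call and 12 gained it. The count of called values that reversed direction was 0. Of the uncalled values 41 changed sign in 1 or more alternatives, and those fits are among the 1969. In terminal against wild-type spleens 7 of 8 members passed in all alternatives but 1, the mean of probe sets, with 8. Array weights gave 2 members in the tissue contrast (Cpox at 1.36), 4 in transition (Alas1 0.49, Alas2 -1.37, Urod -1.12, Cpox -1.45) and 2 in early spleens (Cpox 0.79), against 1, 0 and 1. Leaving out single arrays gave 0 to 2 in transition (2 without transition array 1, Alas1 0.56 and Alas2 -1.68) and 1 to 2 in progression (2 without progression array 3, Fech -0.43). The cause was not tested. The 3 lost calls were of Alad: terminal against early, -1.47 with months as covariate and -1.63 with the compared groups alone, and terminal against progression, -1.54 with months. Cpox passed in terminal against early at -1.33 with array weights and -1.31 without early array 3. Correlations with Alas2 past the test only under an alternative were that of Alas1 in marrow and those of Fech and Uros in spleen. Alas1 was at -0.64 without 2 arrays, but at -0.25 with group means removed. With group means removed in spleen, terminal arrays included, Fech was at 0.65 and Uros at -0.60, against 0.25 for Uros without the terminal arrays. The replicate number as block left the counts at 7, 1 and 1 in terminal, progression and early spleens and 0 in marrow. The deviations of arrays with the same number had a median r of 0.0934 in marrow (-0.43 to 0.551) and 0.00772 in spleen (-0.321 to 0.23). For other pairs the medians were -0.0237 and -0.0116. A median cannot tell if some of the numbers stand for something shared. Genes called over all settings ranged from 8 to 1221, 14 to 1979 and 1 to 69 in proliferation, transition and senescence, 825 to 5699, 1111 to 3765 and 2738 to 5139 in early, progression and terminal spleens, 139 to 1911 and 182 to 3471 in terminal against progression and early, and 1345 to 4587 in the tissue contrast. With 3 or 4 arrays a group, marrow standard errors were 0.20 to 0.22 for Alas1 and up to 0.64 for Alad.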
